A study of Mus musculus with 6 samples.

Results

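The suppressors of cytokine signalling form a family of intracellular inhibitors, of which Socs1, Socs2, Socs3 and Cish are described here in single regulatory T (Treg) cells of the mouse spleen. The members were taken by symbol from a table of UMI counts, and all 4 were found among its 14098 genes. A UMI, or unique molecular identifier, marks 1 captured RNA molecule. Levels are given as CPM, UMIs of a gene per 1000000 UMIs, pooled over cells, with exact Poisson 95% intervals, which cover counting error only.

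The labels name 6 scRNA-seq samples of EGFP+ Treg cells, enriched as CD4+ T cells and then sorted from spleens of C57BL/6 mice aged 18 to 21 weeks. Of these, 3 were conditional knockouts (cKO; Bach2fl/fl Foxp3EGFP-Cre-ERT2) and 3 were wild type (WT; Bach2+/+ Foxp3EGFP-Cre-ERT2). Mice of both genotypes were given tamoxifen, which activates Cre-ERT2, and both carried the Cre and EGFP at the Foxp3 locus, so that only Foxp3-expressing cells could lose Bach2, a gene for a transcriptional repressor. The cells carry 6 barcode suffixes, called barcode sets 1 to 6 below, and no name in the files ties a set to a sample, so cKO and WT cells were not compared and the table was treated as 1 sample without p-values.

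SOCS proteins are negative feedback inhibitors of JAK-STAT signalling: cytokines that activate STAT factors induce SOCS genes, and the proteins then bind receptors or JAK kinases through an SH2 domain. A SOCS box recruits elongins and a cullin, which can mark the bound partners for ubiquitination. In T cells, Cish and Socs2 are known as STAT5 targets downstream of IL-2, SOCS1 restrains IL-2-family and interferon signalling, and SOCS3 restrains signalling through gp130, the receptor chain shared by IL-6-family cytokines. SOCS1 is also known to be needed for stable Treg function in mice.

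The promoters are shown because STAT binding there links the family to cytokine signals, the subject of the comparisons below. In the RefSeq promoter table for GRCm38.p6, which covers 250 bases before to 50 bases after a gene's start, 3 of the 4 members were matched: Cish (chr9:107296409-107296708, plus strand), Socs3 (chr11:117969317-117969616, minus strand) and Socs1 (chr16:10785487-10785786, minus strand). Each is printed 5′ to 3′ on the strand of the gene, and capitals mark motif matches. In Cish and Socs3 the capitals mark the STAT palindrome TTCNNNGAA, which reads the same on both strands. In Socs1 they mark GAAANNGAAA, an interferon-type repeat that was searched on both strands and was chosen after the sequences were seen.
Cish promoter: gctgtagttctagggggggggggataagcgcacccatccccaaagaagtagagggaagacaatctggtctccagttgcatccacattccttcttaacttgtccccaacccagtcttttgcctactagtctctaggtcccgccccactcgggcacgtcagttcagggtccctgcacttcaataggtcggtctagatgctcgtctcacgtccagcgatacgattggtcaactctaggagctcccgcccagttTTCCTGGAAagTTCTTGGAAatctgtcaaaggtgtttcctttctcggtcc
Socs3 promoter: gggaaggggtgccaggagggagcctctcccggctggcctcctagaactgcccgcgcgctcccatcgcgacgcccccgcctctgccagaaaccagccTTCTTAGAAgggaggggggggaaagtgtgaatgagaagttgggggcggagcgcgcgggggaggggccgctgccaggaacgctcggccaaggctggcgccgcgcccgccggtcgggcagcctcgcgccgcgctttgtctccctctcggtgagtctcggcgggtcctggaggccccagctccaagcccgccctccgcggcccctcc
Socs1 promoter: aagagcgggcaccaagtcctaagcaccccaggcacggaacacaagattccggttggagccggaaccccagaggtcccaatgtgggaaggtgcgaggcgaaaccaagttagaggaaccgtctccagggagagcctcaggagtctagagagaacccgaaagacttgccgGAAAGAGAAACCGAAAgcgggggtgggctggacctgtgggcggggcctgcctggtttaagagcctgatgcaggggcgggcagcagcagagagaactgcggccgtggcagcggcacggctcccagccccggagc

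Cish held 2 STAT palindromes, TTCCTGGAA at bases 251 to 259 and TTCTTGGAA at bases 262 to 270 of the printed stretch, at and just after the start used by the RefSeq table. Socs3 held 1, TTCTTAGAA at bases 97 to 105, and Socs1 held 0. Among all 32851 promoters of the table, 8.30% held at least 1 such palindrome and 0.457% at least 2. Socs1 held 2 overlapping interferon-type repeats, GAAAGAGAAA at bases 168 to 177 and GAAACCGAAA at bases 174 to 183, whereas 3.44% of all promoters held at least 1 and 0.225% at least 2. A match describes the letters of this window and is not a measured binding site.

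In the GENCODE annotation of GRCm38, all 4 members are protein-coding genes: Socs1 (ENSMUSG00000038037.5) lies on the minus strand of chromosome 16 at 10782240 to 10785536, Socs2 (ENSMUSG00000020027.18) on the minus strand of chromosome 10 at 95385362 to 95417180, and Socs3 (ENSMUSG00000053113.3) on the minus strand of chromosome 11 at 117966079 to 117970047. Cish (ENSMUSG00000032578.7) lies on the plus strand of chromosome 9 at 107296026 to 107302784 and overlaps 2 annotated genes of the opposite strand, the pseudogene Gm17040 and the antisense gene Gm17041. The use of strand in the authors' counting is not given in the sources used here. Whether reads of these partners were counted as Cish was not tested. The RefSeq starts used for the promoters of Cish and Socs3 differ from the outer GENCODE ends, and their printed windows lie wholly inside the GENCODE genes. That of Socs1 falls on its outer GENCODE end, base 10785536.

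The table held 10685 cells with 25389602 UMIs, of which 10680 cells passed filters on detected genes and mitochondrial UMIs, and the median depth per barcode set was between 2000 and 2229 UMIs. After 234 cells with markers of other types were set aside, 10446 cells remained and are called Treg cells here. Their label was matched by Foxp3 at 21.3 CPM (19.4 to 22.7 over the 6 sets), Ikzf2, which encodes the Treg factor Helios, at 1025 CPM, Cd3e at 742 CPM and Cd4 at 138 CPM. The B-cell gene Cd79a stood at 5.28 CPM, the myeloid gene Lyz2 at 9.67 CPM and the CD8 T-cell gene Cd8a at 0.284 CPM. Between sets, 63 barcodes recurred, held by 126 cells.

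All 4 members were detected in every set. Socs1 was at 109, 123, 126, 131, 133 and 121 CPM in sets 1 to 6, and pooled over Treg cells it was at 124 CPM (119 to 128). It varied least, with a highest set 1.22 times the lowest. Socs2 was at 50.1, 51.8, 53.9, 65.4, 67.6 and 64.8 CPM in the same order, with a highest set 1.35 times the lowest. Socs3 was at 93.2, 77.5, 74.6, 76.9, 95.0 and 54.7 CPM. Sets 1 and 5 were highest and set 6 lowest for this gene, a spread of 1.74 times in which set 6 lay below the counting intervals of the other sets. Cish was at 85.4, 104, 103, 149, 156 and 153 CPM, and its spread of 1.83 times was the widest of the 4. What differs between the barcode sets cannot be read from the files, and part of each spread is counting error.

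**Figure D1:**
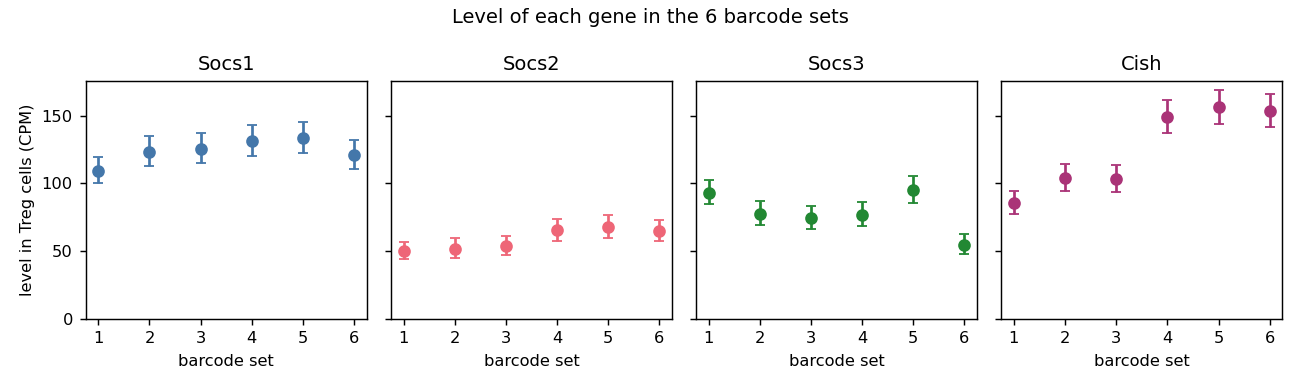
Level of Socs1, Socs2, Socs3 and Cish (y axis, CPM in Treg cells) in barcode sets 1 to 6 (x axis), with exact Poisson 95% intervals as bars. Socs1 lies within 109 to 133 CPM, while Cish spans 85.4 to 156 CPM and Socs3 54.7 to 95.0 CPM.

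At this depth each gene was seen in a minority of cells. After each cell was thinned to 1000 UMIs, which left out 306 shallower Treg cells and kept 10140, Socs1 was detected in 11.4% of cells, Socs2 in 4.99%, Socs3 in 6.93% and Cish in 11.5%. The unthinned shares were 22.2%, 10.8%, 15.0% and 23.3% in the same order. Most positive cells held 1 UMI, and no thinned cell held more than 4 of any member. The variance of the thinned counts was 1.12 times the mean for Socs1, 1.18 times for Socs2, 1.14 times for Socs3 and 1.09 times for Cish. All 4 lay above the value of 1 that counting alone gives. For Socs2, 41 thinned cells held 2 UMIs and 6 held 3 or more. In counts this sparse the ratio stays near 1 even where cells differ in level, so it does not show even expression.

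The members were also read in the cells set aside as other types. Free RNA was not estimated and no doublet caller was run, so the levels there do not measure free RNA. In the 92 cells with B-cell markers (median 1917.5 UMIs), Socs2 was at 14.5 CPM and Socs3 at 19.4 CPM, against 58.7 and 78.8 CPM in Treg cells (median 2086 UMIs). After thinning, Socs2 was found in 0 of 89 B-cell-marker cells (exact binomial upper limit 4.06%) and Socs3 in 1.12%, and Socs1 and Cish in 7.87% and 6.74%. In the 141 cells with myeloid markers (median 3201 UMIs), Socs1 was at 107 CPM, Cish at 108 CPM, Socs2 at 44.5 CPM and Socs3 at 39.1 CPM, and thinned shares were 12.6%, 9.63%, 4.44% and 2.22%. Cish was at 67.8 CPM in B-cell-marker cells (37.1 to 114), below its 124 CPM in Treg cells (119.8 to 129), and Socs1 at 82.3 CPM (48.0 to 132), an interval that holds its Treg level.

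The first comparison asked how the members moved with Treg activation. Each thinned cell was scored by the mean level of 26 activation genes minus that of 13 resting genes, none of them a SOCS gene, and the cells of each set were divided into 3 equal parts by the score. A call required a 1.5-fold or larger difference in the pooled level and 1 direction shared by all 6 sets. Among 8162 measured genes, those with at least 100 UMIs over both sides, 8.44% were called higher and 1.41% lower in the upper than in the lower tertile. The median gene stood at 0.19 (log2), so the split was 4.83% higher and 3% lower relative to it.

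Socs3 fell with activation and was the 1 member called, against the 1.41% of genes called lower. In sets 1 to 6 its level was 48.5, 45.7, 46.2, 64.2, 62.6 and 34.4 CPM in the upper tertile, against 124, 92.9, 98.7, 96.0, 119 and 81.9 CPM in the lower tertile. The upper values lay below the lower ones with no overlap. The pooled log2 ratio was -1.04 (exact conditional binomial 95% interval -1.21 to -0.87), with single sets at -1.35 to -0.58, and -1.23 relative to the median gene. Most of the difference lay between the upper and middle tertiles, where Socs3 was called lower at -0.69 against 0.406% of genes, while the middle tertile stood at -0.35 relative to the lower one, lower in 6 of 6 sets and under the 1.5-fold limit that 0.681% of genes passed.

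Socs2, which also restrains growth hormone signalling, was at 49.8 CPM in the upper tertile and 63.8 CPM in the lower, a log2 ratio of -0.36 (-0.55 to -0.17) that was negative in 6 of 6 sets (-0.93 to -0.07) but under the 1.5-fold limit. Socs1 was at 113 and 127 CPM, with a ratio of -0.17 (-0.30 to -0.04) and single sets from -0.40 to 0.32. Cish, which restrains cytokine and T-cell receptor signals, was at 131 CPM in the upper tertile and 115 CPM in the lower, a ratio of 0.19 (0.06 to 0.32). Its sets ran from -0.07 to 0.56, and relative to the median gene it stood at 0.00.

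**Figure D2:**
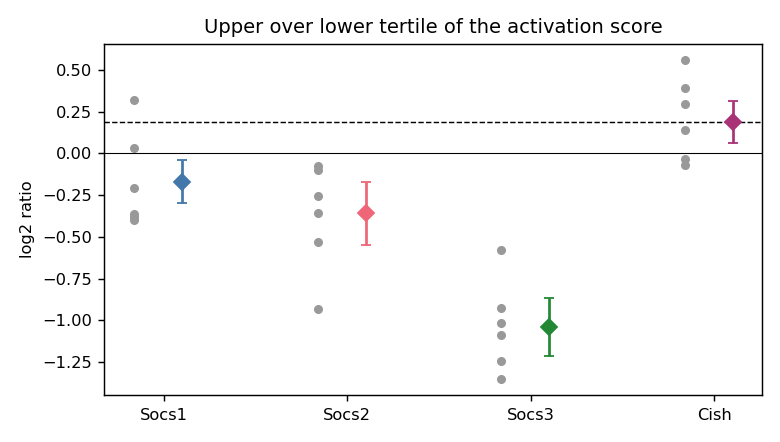
Log2 ratio (y axis) between the upper and lower tertiles of the activation score, upper over lower, for the 4 members (x axis); grey points are the 6 barcode sets, diamonds the pooled ratios with 95% counting intervals, and the dashed line the median of 8162 genes at 0.19. The 6 sets of Socs3 lie between -1.35 and -0.58, while those of Cish and Socs1 lie on both sides of 0.

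Depth and RNA content moved with the score as well. The median cell had 1916 UMIs in the upper tertile and 2422 in the lower, and ribosomal protein genes took 32.2% of UMIs in the upper and 39.6% in the lower. With totals that leave ribosomal and mitochondrial genes out, Socs3 stood at -1.21. Among deeper cells, those at or above their set's median depth, Socs3 was called lower at -1.30, against 1.68% of genes. Among shallower cells it was at -0.69, lower in 5 of 6 sets and not called, where 0.964% of genes were. Markers of B cells summed to 64.1 CPM in the upper tertile and 54.7 CPM in the lower (39.6 to 76.3 over sets and tertiles, 8 of 9 listed genes in the table), and myeloid markers to 507 and 432 CPM (354 to 573, 10 of 10). Erythroid markers summed to 75.9 and 71.0 CPM (1.34 to 275, 6 of 6) and CD8 and NK markers to 18.1 and 16.7 CPM (10.1 to 27.1, 3 of 5). No marker of these lists that was in the table was at 0, and their part in the result was not tested.

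In finer steps, Socs3 was at 109, 91.4, 81.2, 62.4 and 44.8 CPM from the lowest to the highest quintile of the score, a decline at each step. Socs2 was at 65.7, 61.1, 60.6, 54.0 and 49.7 CPM over the same quintiles. Socs1 peaked in the middle one at 136 CPM, with 126 CPM in the lowest and 109 CPM in the highest. Cish was at 109, 120, 131, 129 and 135 CPM pooled over sets, and its neighbouring upper quintiles did not differ beyond their counting intervals. By set, its lowest and highest quintiles were at 52.1 and 101, 74.4 and 135, and 73.5 and 113 CPM in sets 1 to 3. In sets 4 to 6 they were at 167 and 151, 147 and 168, and 156 and 144 CPM, without a shared direction. The tertile borders are not natural breaks, since 24.7% of scored cells lay within 0.05 score units of one.

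**Figure D3:**
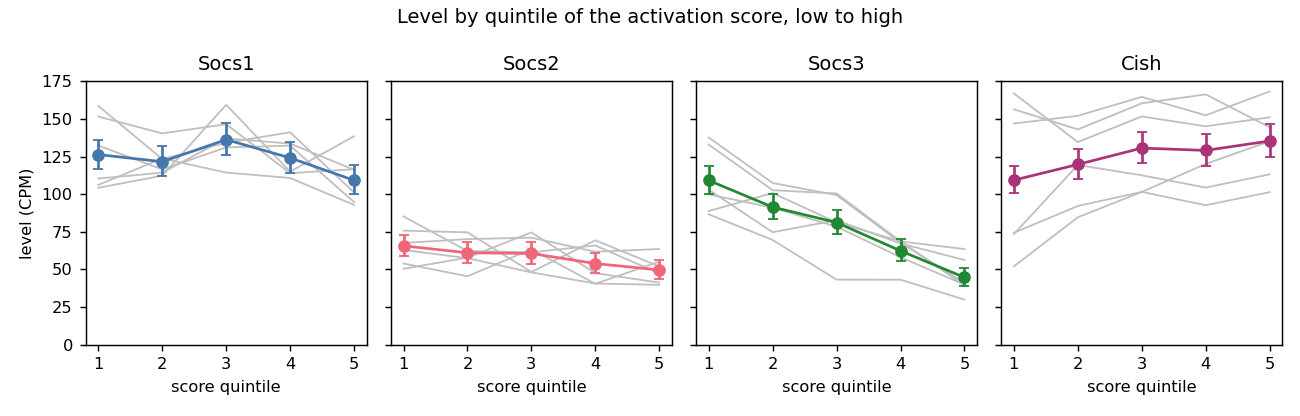
Level (y axis, CPM) by quintile of the activation score from low to high (x axis); grey lines are the 6 barcode sets and coloured points the pooled level with its 95% counting interval. Pooled Socs3 runs from 109 CPM in the lowest to 44.8 CPM in the highest quintile. Pooled Cish runs from 109 to 135 CPM, while sets 4 and 6 run the other way.

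Cells were next placed in states by summed UMIs of marker genes: 56 cycling-marker cells, 230 interferon-response-marker cells, 1378 cells with markers of T-cell receptor (TCR) stimulation, 520 with Ccl5-effector markers, 1320 with S100-effector markers and 878 with resting markers. The other 5744 cells, 56.6% of those scored, reached no state, and a further state of 14 cells was too small to describe. The states share markers with the activation score, so they do not test the tertiles independently. The sets fed them unevenly: Ccl5-effector cells made up 3.18% to 9.95% of a set's cells, S100-effector cells 8.75% to 17.6% and resting cells 6.72% to 10.95%.

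Socs3 was lower in cells with TCR-stimulated and with Ccl5-effector markers than in resting-marker cells. In sets 1 to 6 it was at 40.8, 58.0, 62.9, 48.6, 49.6 and 23.9 CPM in TCR-stimulated cells, against 139, 86.0, 103, 90.7, 139 and 79.1 CPM in resting cells. No TCR-stimulated value reached the lowest resting value, and the pooled ratio was -1.23 (-1.53 to -0.93), called lower as were 2.48% of genes. In Ccl5-effector cells Socs3 was at 8.10, 16.7, 38.9, 64.8, 73.4 and 48.7 CPM, also below every resting value, with a pooled ratio of -1.11 (-1.56 to -0.68) against 1.82% of genes called lower. Without set 1, which held 1 Socs3 UMI in this state, that ratio was -0.83 and still called.

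S100-effector cells had Socs3 at 74.5 CPM and resting cells at 108 CPM, a ratio of -0.53 that was negative in 6 of 6 sets and under the 1.5-fold limit, where 1.02% of genes were called lower. Relative to the median gene it was called lower at -0.75, against 3.17% of genes, and it was also called without set 2 (-0.60) and with totals free of ribosomal and mitochondrial genes (-0.74). Interferon-response cells were at 89.8 CPM, a ratio of -0.26. The order of the pooled levels, from cycling (22.8 CPM) through TCR-stimulated (45.8), Ccl5-effector (49.8), S100-effector (74.5) and interferon-response (89.8) to resting (108), held neighbours that did not differ beyond their counting intervals, among them TCR-stimulated and Ccl5-effector cells.

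Socs1 was at 157 CPM in interferon-response cells and 114 CPM in resting cells. By set it was at 136, 71.2, 177, 197, 150 and 163 CPM in interferon-response cells, against 112, 112, 96.0, 119, 128 and 125 CPM in resting cells. Set 2, with 3 Socs1 UMIs in this state, was the 1 set that was lower. The log2 ratio of 0.47 (0.09 to 0.83) was higher in 5 of 6 sets and not called, where 5.36% of genes were. The 5744 cells of no state had Socs1 at 136 CPM, above resting cells in 6 of 6 sets. That level lay within the counting interval of interferon-response cells, 125 to 195 CPM. In cells with a UMI of the single interferon-induced gene Isg15, Socs1 stood at 0.25 (0.07 to 0.42), again higher in 5 of 6 sets and not called, where 1.12% of genes were. With cells thinned to 500 UMIs in place of 1000, that ratio was 0.0018, so the split by Isg15 does not hold under this setting. Socs1 was not called in TCR-stimulated (-0.03), S100-effector (-0.08) or Ccl5-effector cells (-0.25).

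Neither Cish nor Socs2 passed the plain call in these states. Cish was at 143 CPM in TCR-stimulated, 137 CPM in Ccl5-effector and 132 CPM in S100-effector cells, against 105 CPM in resting cells, with log2 ratios of 0.44, 0.37 and 0.33. Within sets the median ratios were 0.49, 0.23 and 0.34, higher in 5, 4 and 5 of 6 sets. None of these passed, while 11.3%, 8.44% and 8.12% of genes were called higher in the same states. Relative to the median gene, which itself stood at 0.22, 0.19 and 0.22, Cish was at 0.23, 0.18 and 0.11 and was not called. In sets 1 to 6 Cish was at 92.5, 123, 110, 152, 161 and 209 CPM in TCR-stimulated cells and at 57.9, 83.8, 77.3, 195, 132 and 148 CPM in resting cells, so that set 4 ran the other way, and without it Cish stood at 0.61 and was called. Socs2 was at 39.9 CPM in TCR-stimulated cells and 64.5 CPM in resting cells, a ratio of -0.69 that was negative in 5 of 6 sets and not called. Relative to the median gene it stood at -0.91 and was called lower, as were 5.27% of genes, and it was also called without set 3 (-0.83), with 500 UMIs (-0.60), with states of at most 10% of cells (-1.01) and with totals free of ribosomal and mitochondrial genes (-0.88). In S100-effector cells it was at 78.5 CPM, a ratio of 0.28. The levels of Socs2 and Cish thus ran in opposite directions in TCR-stimulated cells, a difference that was not itself tested.

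Cycling-marker cells had the lowest pooled Socs1, Socs3 and Cish levels of the states, with Cish at 68.3 CPM (47.0 to 95.9). Socs1 was at 41.4 CPM in cycling cells and 114 CPM in resting cells (20 UMIs and 259 UMIs; ratio -1.46), and Socs3 at 22.8 CPM and 108 CPM (11 UMIs and 245 UMIs; ratio -2.24), both called lower where 5.97% of genes were. These 56 cells had a median of 7955.5 UMIs, against 2514.5 in resting cells, and their values rest on few molecules: by set, Socs3 had between 0 and 3 UMIs and Socs1 between 1 and 10. In the subset of cells kept in the authors' normalised table the ratios were -2.28 for Socs1 and -1.22 for Socs3. Cish (-0.63) and Socs2 (-0.57) were at lower pooled levels and were not called. Without set 1 Cish was called (-0.79), as it was with totals free of ribosomal and mitochondrial genes (-0.94), and without set 3 Socs2 was (-0.78).

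**Figure D4:**
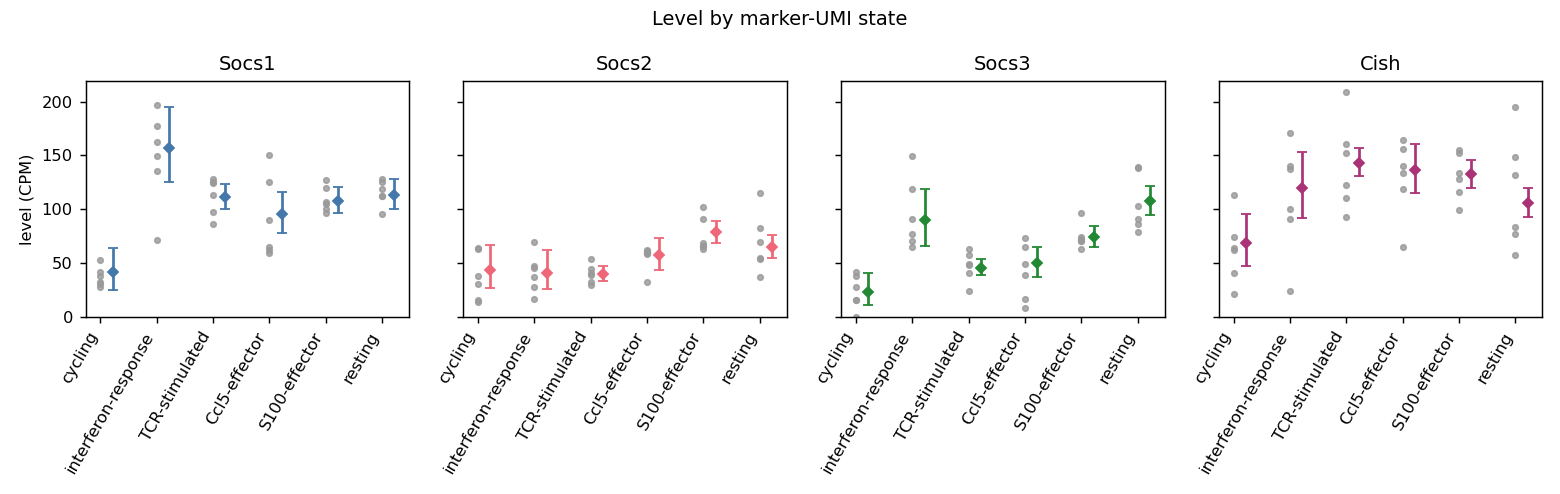
Level (y axis, CPM) of each member in 6 marker-defined states (x axis); grey points are the 6 barcode sets and diamonds the pooled level with its 95% counting interval. Socs3 sits at 45.8 CPM in TCR-stimulated cells and 108 CPM in resting cells, and Socs1 at 157 CPM in interferon-response cells and 114 CPM in resting cells.

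Splitting cells by 1 receptor gene set Socs2 apart. Il2ra encodes CD25, the IL-2 receptor alpha chain, and 929 thinned cells (9.16%) had an Il2ra UMI. In sets 1 to 6 Socs2 was at 107, 81.6, 122, 83.4, 123 and 65.5 CPM in cells with an Il2ra UMI, against 45.3, 48.8, 47.6, 62.7, 60.2 and 63.7 CPM in cells without. Every value with Il2ra lay above every value without, although set 6 hardly differed. The pooled levels were 96.7 and 54.4 CPM, a ratio of 0.83 (0.62 to 1.04), and Socs2 was the 1 member called higher, against 0.536% of 8958 measured genes. With thinning to 500 UMIs the ratio was 0.73 and not called, since not all 6 sets shared its direction. Median depth was 2282 UMIs in cells with Il2ra and 2105 in cells without.

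Cish was at 158 CPM in cells with an Il2ra UMI and 121 CPM in cells without, a ratio of 0.39 (0.22 to 0.54), higher in 6 of 6 sets but under the 1.5-fold limit. Socs1 stood at 0.22, also higher in 6 of 6 sets and not called, and Socs3 at 0.04. Within the lower, middle and upper activation tertiles, a subdivision chosen after the pooled split was seen, Socs2 stood at 0.76, 0.81 and 0.90. It was called in the lower and middle tertiles, against 0.872% and 0.748% of genes, and was higher in 5 of 6 sets in the upper. Cish stood at 0.34, 0.28 and 0.59 in the same tertiles and was called in the upper one, against 1.29% of genes.

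With thinning to 1000 UMIs, no member was called in any of the other 9 gene splits or in the split by immediate-early genes. Socs2 was higher in 6 of 6 sets in cells with a UMI of Il2rb, the IL-2 and IL-15 receptor beta chain (0.41), where 0.167% of genes were called higher. It was also higher in 6 of 6 sets with Ifngr1, an interferon-gamma receptor chain (0.45), where 0.435% were, but with cells thinned to 500 UMIs that ratio was -0.0058. With Il2rb the ratio at 500 UMIs was 0.27. Socs3 was higher in 6 of 6 sets in cells with a UMI of Il4ra, the IL-4 receptor alpha chain (0.48, 0.19 to 0.75), against 1.19% of genes called.

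Cells with a UMI of Ikzf2 had Socs3 at -0.47 and Socs2 at -0.28, both lower in 6 of 6 sets, and Cish at 0.26 (0.14 with 500 UMIs), higher in 6 of 6, while 0.313% of genes were called lower and 1.83% higher. Cells with a UMI of Il6st, which encodes gp130, had Socs3 at -0.14, with 3 of 6 sets higher and 0.447% of genes called lower, and at 0.30 with thinning to 500 UMIs, so its direction depends on the thinning. The 254 cells with a Bach2 UMI had Cish at 0.55 and Socs3 at 0.42, each higher in 5 of 6 sets, on 117 and 68 UMIs, against 1.69% of genes called higher. Within sets the median ratios were 0.36 for Cish and 0.66 for Socs3. Bach2 is the gene deleted in the cKO samples, and its level ran from 18.4 to 35.7 CPM over the sets. The pooled split therefore mixes differences between sets, and possibly genotypes, with those between cells, which cannot be told apart here. With thinning to 500 UMIs Cish stood at 0.032 and Socs3 at 0.83, and Socs3 was then called higher. With Il7r, Cish stood at 0.19, higher in 6 of 6 sets (0.793% called higher), and at 0.085 with 500 UMIs. In the 1226 cells with immediate-early genes Socs3 stood at -0.24, lower in 6 of 6 sets (0.357% called lower), and with the single gene Fos the members stood between -0.02 and 0.15 (1.36% called higher).

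**Figure D5:**
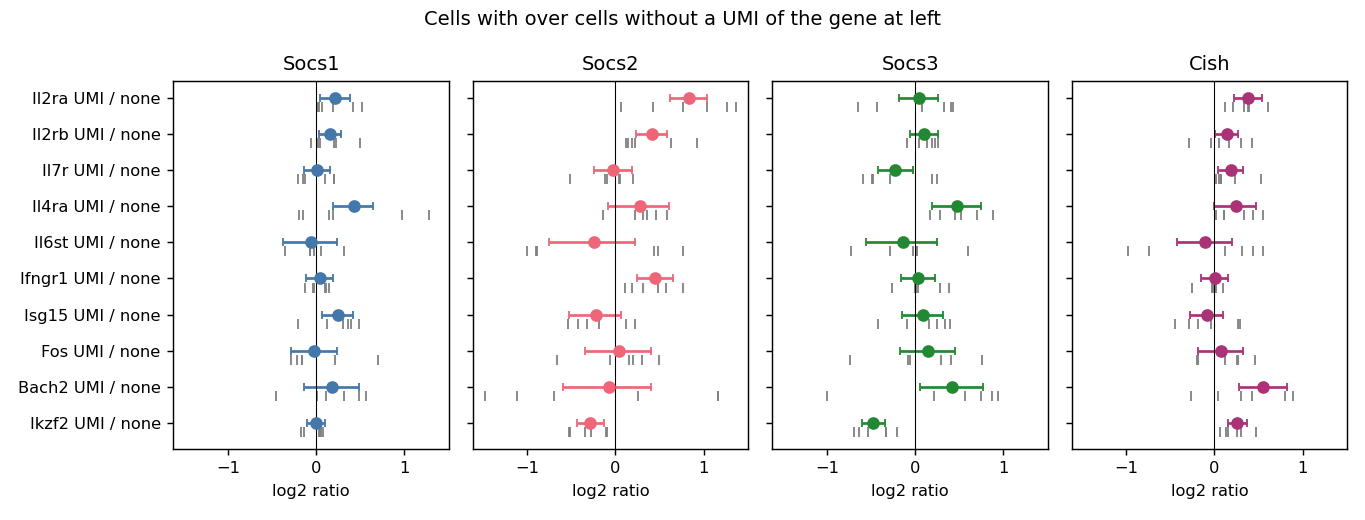
Log2 ratio (x axis) of each member in cells with over cells without a thinned UMI of the gene named at left (y axis); circles are pooled ratios with 95% counting intervals and grey ticks the 6 barcode sets. Socs2 with Il2ra, at 0.83, is the ratio that was called.

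The members were also compared within cells. Of the 10140 thinned cells, 7156 (70.6%) held no UMI of any member, 2491 held UMIs of 1, 440 of 2, 51 of 3 and 2 of all 4. Socs1 and Cish were found together in 204 cells, where 134.8 were expected from the product of their shares in each set. Socs1 and Socs3 were found together in 111 cells against 79.5 expected, and both pairs were above expectation in 6 of 6 sets. The other 4 pairs ran from 1.17 to 1.29 times expectation, above it in 4 or 5 sets. In counts this sparse the excess is a description, and its relation to cell size or RNA content was not tested.

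The levels by member split come from the same cells and include the UMIs that gave these pairs, so they are not independent of them. The splits by Socs1 and by Cish also describe their association from both sides. In cells with a Socs3 UMI, Socs1 was at 190 CPM and in cells without at 119 CPM, a ratio of 0.68 (0.51 to 0.85), called higher against 0.558% of genes. The call was lost without set 1 (0.57) and with thinning to 500 UMIs (0.51). Cish was at 179 CPM in cells with a Socs1 UMI and 118 CPM in cells without, a ratio of 0.60 (0.46 to 0.74), called against 0.48% of genes, and lost without set 1 (0.53) and with 500 UMIs (0.52). Socs1 in the Cish split stood at 0.59, called against 0.469% of genes, and the call was kept in 3 of 6 runs that left out a set, with 0.54 without set 1, 0.58 without set 3 and 0.50 without set 4. Socs3 was higher in 6 of 6 sets in cells with a Socs1 UMI, at 110 CPM against 75.0 CPM without (0.55). It was not called, but was without set 1 (0.61) and with 500 UMIs (0.61). Relative to the median gene, Socs1 in the Cish split stood at 0.57, under the 1.5-fold limit that 0.368% of genes passed. In the Socs2 split, with 1.07% of genes called higher, no other member was called: Cish stood at 0.52, higher in 5 of 6 sets (0.63 and called without set 5), Socs1 at 0.37 and Socs3 at 0.07. Socs2 in cells with a Socs3 UMI stood at 0.08.

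Genes of the pathway were read from lists of receptors, kinases, STAT factors, inhibitors, STAT-induced genes and SOCS-box partners, 68 entries in all, of which 63 were measured between the tertiles. Of these, 9 were called higher and 4 lower, against 8.44% and 1.41% of all genes (4 and 8 relative to the median gene). Il2ra stands in 2 lists and is counted in each. Among 19 measured cytokine receptor chains, with a median of 0.22 against 0.19 for all genes, 4 rose (3 relative to the median gene, without Il10ra): Il9r (1.56), Il12rb1 (1.13), Crlf2, which encodes the TSLP receptor chain (0.97), and Il10ra (0.67). Another 2 fell, Il6ra (-1.12), the IL-6 receptor alpha chain, and Ifngr2 (-0.95). Il6ra was at 35.8 CPM in the upper tertile and 78.0 CPM in the lower. Il4ra (-0.58), Il2ra (-0.47) and Il6st (-0.42) were called lower only relative to the median gene.

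Jak3, the kinase that pairs with the common gamma chain, was the 1 of 4 JAK kinases called (0.74), at 48.1 CPM in the upper tertile and 28.7 CPM in the lower, but not relative to the median gene (0.56). None of 7 STAT genes was called: Stat5a stood at 0.46, Stat3 at 0.15 and Stat5b at 0.01. Of 10 other JAK-STAT inhibitors 1 was called higher, Pias3 (0.78), and 0 relative to the median gene, while the phosphatase genes Ptpn11 (0.56) and Ptpn1 (0.35) did not pass. The 4 SOCS-box ligase genes were not called, with Rnf7 at 0.30, Elob at 0.27, Cul5 at 0.21 and Eloc at 0.13. The other family members Socs4, Socs5 and Socs6 were measured at 0.07, 0.33 and 0.45 and not called, and Socs7 had too few UMIs.

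Among 16 measured STAT-induced genes, with a median of -0.10, 3 rose and 2 fell (1 and 3 relative to the median gene). The survival genes Bcl2l1 and Bcl2 moved in opposite directions: Bcl2l1 was at 29.5 CPM in the upper tertile and 13.1 CPM in the lower (1.17), while Bcl2 was at 226 and 505 CPM (-1.16). Irf8 (0.97) and Bcl3 (0.60) rose in plain values, and the interferon-induced GTPase gene Gbp2 (-0.61) fell. The kinase gene Pim1, a common STAT5 target, stood at 0.03. In cells with an Il2ra UMI, 3 of 65 measured list entries were called higher, Irf8 (0.88), Lta (0.74) and Il4ra (0.62), and 1 lower, Il9r (-1.07), against 0.536% and 0.793% of genes.

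Genes whose level was most like that of a member were ranked by Pearson correlation of log2(CPM + 10) over 42 groups, each a state in 1 barcode set, among 6266 genes. Socs3 was most like Evl (0.73), Dgka (0.73), Rpl24 (0.72), Rpl13a (0.71) and 5830468F06Rik (0.71). Cish was most like Impact (0.80), Grap (0.73), Herpud2 (0.72), Gimap6 (0.72) and Pink1 (0.72). Socs1 was most like Crebrf (0.87), Rpl27 (0.80), Rps27 (0.79), Ccnd2 (0.78) and mt-Nd4 (0.78), and Socs2 most like Klf3 (0.67), Syf2 (0.64), Gm26740 (0.62), Tmem64 (0.62) and Adprm (0.62). The groups of a set share its library and its depth, so these values are a description. Cish itself ran from 85.4 to 156 CPM between sets, so its correlations mix differences between sets with those between states.

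Without the 6 cycling groups, an alternative chosen after the data were seen, the 5 genes nearest to Cish stood at 0.54 to 0.79 over 36 groups, with Impact at 0.79, and those nearest to Socs3 at 0.45 to 0.67. Those nearest to Socs1 stood at 0.13 to 0.54 without them. Between members the highest correlation with the cycling groups was that of Socs1 and Socs3, at 0.62, which stood at 0.30 without them. Without these groups the highest was that of Socs1 and Cish, at 0.36 (0.60 with them). The lowest in both cases was that of Socs3 and Cish, at 0.21 with and -0.16 without.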

How the data were processed

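Single-cell libraries were made with the Chromium 3′ kit (version 2), per the labels' protocols, and the submitters' processing notes name FastQC, cutadapt, HISAT2, Cell Ranger, Seurat and the build mm10, without roles or versions. The authors deposited UMI counts per gene and cell, and a natural log table of 10464 cells whose values equal ln(1 + CPM/100), counts scaled to a fixed total per cell, to within 1e-09. Only the counts were used for levels. All 10685 value columns are tied to no sample by name.

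A cell needed 200 detected genes, and mitochondrial genes had to give below 10% of its UMIs. Cells with 3 distinct B-cell or myeloid markers, or over 50% erythroid UMIs, were set aside. No doublet caller was run. Scores, states and splits used cells thinned to 1000 UMIs, and levels used all their UMIs. A state needed 2 distinct markers, or 3 for cycling and interferon response, and a summed marker count that at most 20% of cells reach; in single sets 0.5 UMIs were added to ratios. Intervals are exact 95% intervals, for counting error only. The contrast was checked on simulated data.

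The members, lists, tests and motifs were chosen with earlier results of these data known. The text names all members, list genes that were called or otherwise up to 4 with the largest ratios, and the 5 genes most like each member. A few further list genes, among them Pim1, Stat5b and Il6st, were named after their values were seen. In the lists, 3 symbols were matched through older symbols. Alternatives were other thinning, cell filters, totals, state limits and score divisions, and leaving out each barcode set. Work used Python 3.11.15, numpy 2.4.6, scipy 1.17.1 and pandas 2.3.3. A planned comparison of proteins was not run.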

Additional observations from a re-analysis of the deposited data

How the results depend on the processing

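No alternative turned the direction of a called result. Socs3 in the upper over the lower activation tertile stood at -1.30 to -0.69 over 12 alternatives, and at -1.14 to -0.96 when each barcode set was left out. It moved to -0.71 with thinning to 500 UMIs, -1.29 with quintiles, -1.30 in deeper and -0.69 in shallower cells, the last not called. Socs1 moved to -0.34 with totals without ribosomal and mitochondrial genes, -0.032 as a mean over cells, -0.36 in deeper and -0.0046 in shallower cells, and Cish to 0.056 with 500 UMIs and 0.018 with those totals. Genes called higher numbered 410 with those totals and 202 in shallower cells, and genes called lower 236 and 51, against 689 and 115; the shallower cells also had fewer genes measured. In the cells of the authors' normalised table, cycling over resting was -2.28 for Socs1 and -1.22 for Socs3. Without cells carrying UMIs of other types and the deepest 2%, Cish there was -1.28, and Socs1 and Socs3 gave no value.

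Thinning to 500 UMIs gave 0.65 and another thinning seed 0.14 for Socs2 in interferon-response cells, so its sign there is not settled, nor is that of several single-gene splits at 500 UMIs. The other seed gave 0.31 for Socs2 and -0.67 for Socs3 in Ccl5-effector cells. Socs3 in TCR-stimulated cells was -1.69 with 500 UMIs and -1.92 with states of at most 10% of cells. For cells with Il2ra, Socs3 was -0.35 within the lower and 0.37 within the upper tertile, and Cish 0.59 within the upper. With totals without ribosomal and mitochondrial genes, levels were 199.8 CPM for Socs1, 94.8 for Socs2, 127 for Socs3 and 201 for Cish. The cause of these shifts was not tested.

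No paired analysis was possible because no barcode set is tied to a sample or replicate number, although each comparison was also read within every set. Shares of cells with a UMI are limited by depth, and alternatives by depth and within tertiles were chosen after seeing the data.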

Other observations

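As point values, the 6 barcode sets fell into separate ranges for Cish and Socs2 but not for Socs1 or Socs3, a grouping read from the values themselves. Cish was at 85.4, 104 and 103 CPM in sets 1, 2 and 3 and at 149, 156 and 153 CPM in sets 4, 5 and 6. Socs2 was at 50.1, 51.8 and 53.9 CPM in the first of these and at 65.4, 67.6 and 64.8 CPM in the others. The Socs2 counting intervals of set 3 (47.1 to 61.5) and set 4 (57.8 to 73.8) overlapped. In resting-marker cells Cish was at 57.9, 83.8, 77.3, 195, 132 and 148 CPM in sets 1 to 6, and Socs2 at 54.1, 55.1, 37.5, 115, 69.3 and 82.4 CPM. The sets are tied to no genotype by name, no test was made between them, and what separates them cannot be read from the files.

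By state, Cish held apart ranges in some states and overlapped in others. In S100-effector cells Cish was at 99.0, 116, 128, 133, 155 and 152 CPM in sets 1 to 6. The counting intervals there of set 3 (92.9 to 173) and set 4 (108 to 163) overlapped. In cells with TCR-stimulated markers it was at 92.5, 123, 110, 152, 161 and 209 CPM, and in cells with Ccl5-effector markers at 64.8, 133, 140, 165, 156 and 119 CPM, where the ranges overlapped.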
